A study of Mus musculus with 6 samples.

Results

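Coat proteins bend membranes into transport vesicles and choose what those vesicles carry. The mRNAs of 48 coat genes, out of 24214 features counted in each sample, were followed in 393P cells with ectopic ZEB1 (393P_ZEB1) and in 393P cells with the empty vector (393P_vector). The genes were taken by symbol and comprise the 3 chains of the clathrin triskelion, 5 subunits of the adaptor complex AP-2, 7 of AP-3, 4 of AP-4, 7 monomeric clathrin adaptors, 9 subunits of the COPI coatomer, 8 genes of the inner COPII coat with its GTPase, and 5 of the outer COPII coat with its scaffold. The parental line, 393P, is a murine lung adenocarcinoma (LUAD) line with epithelial features, labelled as C57BL/6. ZEB1 is a transcription factor that represses epithelial genes and can drive an epithelial-to-mesenchymal transition (EMT). All 6 libraries were made from total RNA of transfectants grown in RPMI-1640 with 10% FCS and were sequenced on the SOLiD platform, 3 samples per group. The labels do not say whether the samples of a group were separate transfections, so the p-values measure only the spread between these samples, which may be technical. The comparison of the groups asks how the coat machinery differs between cells with and without ectopic ZEB1, the study having followed the movement of vesicles in the same cells.

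Clathrin assembles from heavy and light chains into a cage, and it reaches the membrane through adaptors. AP-2 links it to the plasma membrane, the GGA proteins to the trans-Golgi network, and epsins and PICALM to forming pits, where they bind lipid and help to bend the bilayer. AP-3 sorts proteins from endosomes to lysosomes and related organelles, and AP-4 acts at the trans-Golgi network without clathrin. COPI, whose coatomer is recruited by ARF GTPases, returns material from the Golgi to the endoplasmic reticulum (ER). COPII, built from SEC23 and SEC24 under the GTPase SAR1 and then from SEC13 and SEC31, carries newly made proteins out of the ER at exit sites organised by SEC16.

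The 393P_vector libraries held 57844355 to 79158012 counts and the 393P_ZEB1 libraries 54442450 to 61251074, and levels are given as CPM, counts scaled to library sizes normalized by edgeR's TMM method, where 3 counts correspond to between 0.0379 and 0.0551 CPM. The limit of 3 counts covers counting error only, whereas the 95% intervals of fold changes come from the edgeR fit and include the spread between samples. Zeb1 itself ranged from 21.2 to 22.0 CPM in 393P_vector samples and from 48.9 to 54.9 CPM in 393P_ZEB1 samples. Of 8 epithelial markers 7 fell, among them Cldn4 (log2 fold change -8.40), Esrp1 (-7.75) and Epcam (-6.53), Krt19 being the exception at -0.39 (edgeR adjusted p = 0.0809), and all 6 mesenchymal markers rose. The 5 markers of normal lung epithelium, Nkx2-1, Sftpc, Sftpb, Scgb1a1 and Napsa, reached at most 0.0602 CPM in any sample, with Scgb1a1 at 0 throughout, so the labelled tissue shows in none of its lineage markers. Summed over their lists, fibroblast markers lay between 2.23 and 3.06 CPM in 393P_vector and between 2.36 and 3.05 CPM in 393P_ZEB1 samples, endothelial markers between 2.26 and 2.46 and between 0.63 and 0.868 CPM, and immune markers between 2.12 and 4.41 and between 1.46 and 1.72 CPM. 393P_vector replicate 3 stood apart. At a 2-fold limit it differed from replicates 1 and 2 in 5% and 5.51% of tested genes, compared with 0.0648% between those replicates and 0.0936% to 0.18% between 393P_ZEB1 samples, and it was the lowest 393P_vector sample in 31 and the highest in 13 of the 47 tested coat genes.

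Of the 47 tested coat genes, 10 passed the threshold, with Sec16b rising most and Epn3 falling most. By edgeR's quasi-likelihood test with Benjamini-Hochberg adjustment over 13892 genes, at a threshold of 0.05, 6 were higher in 393P_ZEB1 cells (12.8%, compared with 18.3% of all tested genes) and 4 were lower (8.51%, compared with 19.3%). These 10 are 21.3% of the tested coat genes, compared with 37.6% of all tested genes and with 34.4% of the 6946 tested genes above the median level, a range that held 40 of the 47. These shares were set side by side and not tested. The higher genes were Sec16b, Ap3s1, Epn2, Ap4m1, Gga2 and Ap3b1, and the lower genes were Epn3, Sec13, Copz1 and Ap3d1. In 21 coat genes (44.7%) the groups of 3 samples did not overlap, compared with 52.8% of all tested genes, and all 10 genes past the threshold were among them. The median absolute log2 fold change was 0.25 over the coat genes and 0.39 over all tested genes, with medians of 0.02 and -0.02 when the sign is kept. Of the 37 coat genes that did not pass, 22 had a 95% interval inside a 1.5-fold change in either direction and 15 had an interval that reached past it. Ap3b2, the neuronal β3B subunit of AP-3, was not tested, at 0.053 to 0.0722 CPM in 393P_vector and 0.072 to 0.0983 CPM in 393P_ZEB1 samples. In bulk RNA, fewer cells with a transcript and less of it per cell cannot be told apart.

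**Figure D1:**
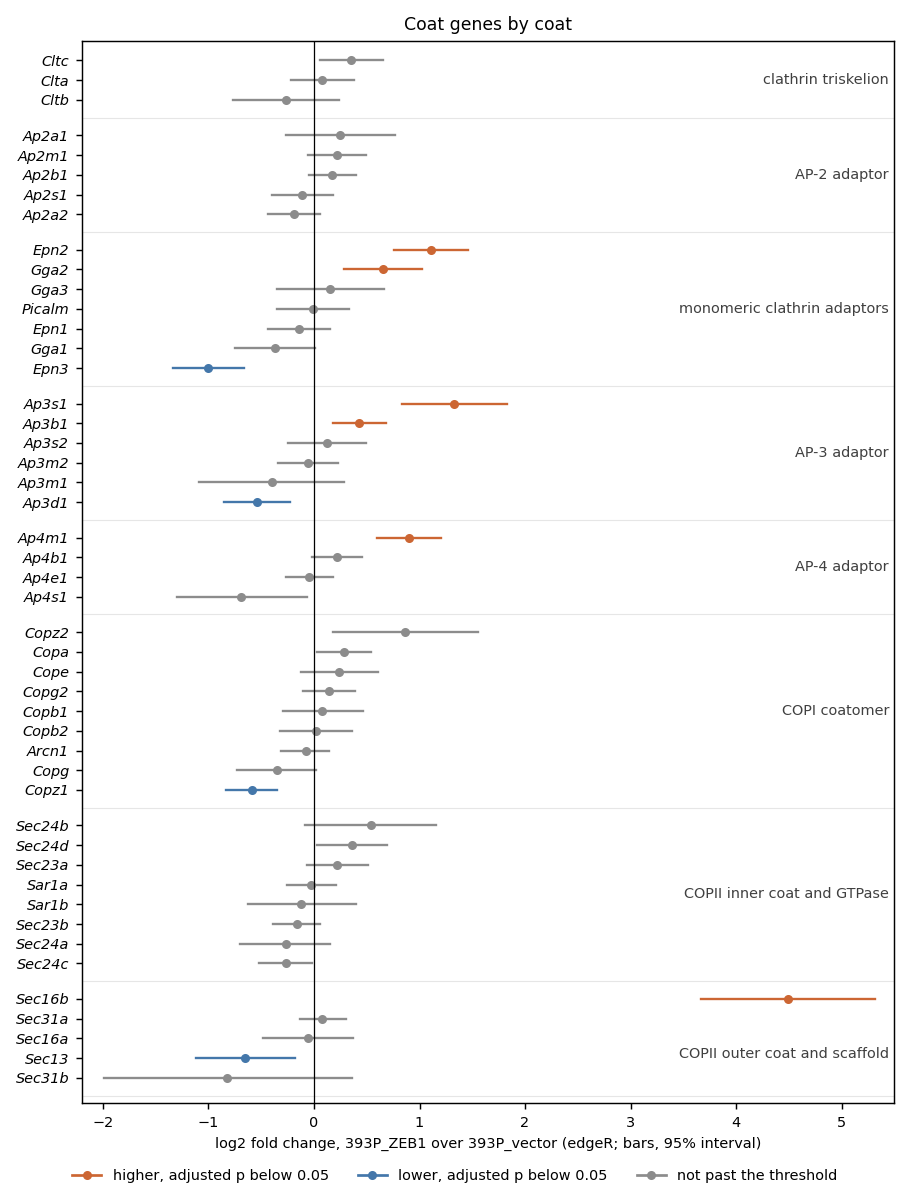
The 47 tested coat genes grouped by coat, with the log2 fold change of 393P_ZEB1 over 393P_vector on the horizontal axis as points and its 95% interval from edgeR as bars. Most points lie within 0.5 of 0, and Sec16b stands apart at 4.49.

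Leaving out 393P_vector replicate 3 changed these counts most among single samples. Without it, 12 coat genes were higher (25.5%, compared with 26.2% of all genes then tested) and 12 were lower (25.5%, compared with 26.8%). The 24 are 51.1% of the coat genes, compared with 53% of all genes, and by limma with sample weights 26 passed, or 55.3%, compared with 58.1%. In both of these fits the shares lay closer together than the 21.3% and 37.6% given above. The 10 genes named above were among those 24. The added genes were Cltc, Copa, Copb1, Copz2, Sec23a and Sec24d on the higher side, and Ap2a2, Cltb, Copg, Gga1, Sec16a, Sec23b, Sec24c and Sec31b on the lower.

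No chain of clathrin passed the threshold by edgeR, compared with 37.6% of all tested genes. Cltc, the heavy chain, was the most abundant coat mRNA per length, at 124 ± 14.3 CPM per kb of exon (SD, n = 3) in 393P_vector and 158 ± 14.8 CPM per kb (SD, n = 3) in 393P_ZEB1 cells. Its values were 857, 695 and 720 CPM in 393P_vector and 1069, 933 and 898 CPM in 393P_ZEB1 samples. The samples did not overlap, and the log2 fold change was 0.35 (95% interval 0.06 to 0.65, edgeR adjusted p = 0.0644), or 0.32 with an adjusted p of 0.0353 without 393P_vector replicate 3. By DESeq2 and by limma with sample weights, 1 and 2 of the 3 chains passed, compared with 41.6% and 58.1% of all tested genes. The light chains Clta and Cltb, which regulate assembly of the cage, had log2 fold changes of 0.08 (95% interval -0.22 to 0.38) and -0.27 (95% interval -0.77 to 0.24). Without 393P_vector replicate 3, Cltb passed the threshold at -0.49 (adjusted p = 0.00143).

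Of the 5 AP-2 subunits, 0 passed by edgeR, 0 had an unadjusted p under 0.05, and DESeq2 and limma with sample weights called 0 and 1. All tested genes passed in 37.6% by edgeR, 41.6% by DESeq2 and 58.1% by limma with sample weights. The log2 fold changes of the AP-2 subunits lay between -0.19 and 0.25. AP-2 has large α and β subunits, a medium µ subunit that reads tyrosine sorting signals, and a small σ subunit. Ap2b1, Ap2m1 and Ap2s1, which encode β, µ and σ, had log2 fold changes of 0.17, 0.22 and -0.11, each with an interval inside 1.5-fold. The α subunit has a pair of genes. Ap2a1 (αA) was at 145, 135 and 76.6 CPM in 393P_vector and 138, 149 and 137 CPM in 393P_ZEB1 samples, and the groups overlapped. Ap2a2 (αC) was at 404, 393 and 338 CPM in 393P_vector and 322, 338 and 334 CPM in 393P_ZEB1 samples. The counts of Ap2m1 need care, because a processed pseudogene, Gm13509, matches 44.5% of its longest transcript at up to 99.7% identity, and how reads with several matches were treated is not given in the sources used here.

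Of the 7 monomeric adaptors, 3 passed the threshold by edgeR, compared with 37.6% of all tested genes. Among these 3, 2 epsins changed in opposite directions. Epn2, an epsin expressed in many cell types (chromosome 11, 61517249 to 61579687), had 119, 118 and 84.6 CPM in 393P_vector and 247, 221 and 226 CPM in 393P_ZEB1 samples. The lowest 393P_ZEB1 sample was well above the highest 393P_vector sample, and the log2 fold change was 1.11 (SE 0.15, edgeR adjusted p = 0.000889), a 2.16-fold rise with a 95% interval of 1.70 to 2.75. Epn3, the epsin best known from epithelia (chromosome 11, 94489599 to 94499974), had 60.9, 66.6 and 47.3 CPM in 393P_vector and 27.8, 28.7 and 30.9 CPM in 393P_ZEB1 samples. Epn3 fell by 1.00 on the log2 scale (SE 0.15, edgeR adjusted p = 0.0014), and the groups did not overlap. Epn1, the third epsin and the most abundant of them per length in both groups, had a log2 fold change of -0.14 (95% interval -0.44 to 0.15). Mycbpap, which lies 1373 bases beyond Epn3 on the same strand, rose by 1.28 on the log2 scale, opposite to Epn3.

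Among the GGA proteins, which sort mannose 6-phosphate receptors, only Gga2 passed the threshold, compared with 37.6% of all tested genes. Gga2 (chromosome 7, 121986722 to 122021198) had 55.3, 59.5 and 40.5 CPM in 393P_vector and 73.8, 84.9 and 85.5 CPM in 393P_ZEB1 samples, a log2 fold change of 0.65 (SE 0.16, edgeR adjusted p = 0.0147). The groups did not overlap, but the adjusted p became 0.0561 without 393P_ZEB1 replicate 2 and 0.0566 without replicate 3. An antisense gene, Gm44987, covers 14.7% of the longest Gga2 transcript. Gga1 and Gga3 had log2 fold changes of -0.37 (95% interval -0.75 to 0.01) and 0.15 (95% interval -0.35 to 0.66). Picalm, which recruits clathrin and sorts SNARE proteins, was at -0.01 (95% interval -0.35 to 0.33).

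Of 6 tested AP-3 subunits, 2 were higher and 1 was lower by edgeR, compared with 18.3% and 19.3% of all tested genes. AP-3 has large δ (Ap3d1) and β (Ap3b1) subunits, a medium µ subunit and a small σ subunit. Ap3b1 (chromosome 13, 94358960 to 94566316) had 136, 139 and 114 CPM in 393P_vector and 175, 172 and 177 CPM in 393P_ZEB1 samples. Its log2 fold change was 0.43 (SE 0.11, edgeR adjusted p = 0.016). Ap3d1 (chromosome 10, 80706978 to 80742211) had 190, 202 and 149 CPM in 393P_vector and 116, 128 and 127 CPM in 393P_ZEB1 samples. It fell by 0.54 on the log2 scale (SE 0.13, edgeR adjusted p = 0.0152). Both sets of samples were separate, yet both calls were close to the threshold. Without any 1 of the 393P_ZEB1 samples the adjusted p of Ap3b1 lay between 0.0523 and 0.0589 and that of Ap3d1 between 0.0526 and 0.0703, and without 393P_vector replicate 1 that of Ap3d1 was 0.0535.

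Ap3s1, the σ3A subunit (chromosome 18, 46741917 to 46790826), had 2.6, 2.53 and 4.12 CPM in 393P_vector and 7.96, 7.56 and 7.81 CPM in 393P_ZEB1 samples. The log2 fold change was 1.33 (SE 0.22, edgeR adjusted p = 0.00233), a 2.51-fold rise with a 95% interval of 1.77 to 3.56. The study chose trafficking genes that were higher in 393P_ZEB1 cells by RNA sequencing, and reports multiple such genes as higher by quantitative PCR. Primers for Ap3s1 are listed there. The interest in Ap3s1 may therefore come from these samples, and its direction here is not independent evidence. Processed pseudogenes on chromosomes X and 8, Ap3s1-ps1 and Ap3s1-ps2, match 38.1% of its longest transcript at up to 99.1% identity, and the level of 5.28 ± 0.138 CPM per kb (SD, n = 3) in 393P_ZEB1 cells can be lowered or raised by how reads with several matches were counted. Atg12, which starts 338 bases away on the other strand, also rose, from 48.2 to 82 CPM on average. The σ3B gene, Ap3s2, had 63.3, 63 and 44.8 CPM in 393P_vector and 68.2, 57.6 and 60 CPM in 393P_ZEB1 samples, which overlapped. The µ subunits Ap3m1 and Ap3m2 had log2 fold changes of -0.40 (95% interval -1.09 to 0.28) and -0.06 (95% interval -0.34 to 0.23). Ap3m1 reads were 47.9 CPM in 393P_vector replicate 3 and between 19.9 and 25.8 CPM in the other 5 samples.

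Of the 4 AP-4 subunits, only the medium µ subunit passed the threshold by edgeR, compared with 37.6% of all tested genes. DESeq2 called 2 and limma with sample weights 3 of the 4, compared with 41.6% and 58.1% of all tested genes. Ap4m1 (chromosome 5, 138172021 to 138178685) had 19.6, 21.1 and 16.3 CPM in 393P_vector and 36.5, 35.1 and 35 CPM in 393P_ZEB1 samples. The samples were far apart, and the log2 fold change was 0.90 (SE 0.13, edgeR adjusted p = 0.00117). Its counted interval overlaps that of Taf6, on the other strand, by 68 bases, and Taf6 rose from 66.1 to 86.7 CPM on average (log2 fold change 0.39, edgeR adjusted p = 0.0481). Whether the counting used strand is not given in the sources used here, and the share of Taf6 reads in the Ap4m1 counts was not tested. The ε and β subunits, Ap4e1 and Ap4b1, had log2 fold changes of -0.05 (95% interval -0.27 to 0.18) and 0.22 (95% interval -0.02 to 0.45). The σ subunit, Ap4s1, was at -0.69 (95% interval -1.30 to -0.07, edgeR adjusted p = 0.077), on levels of only 1.51 to 3.74 CPM. AP-5, an adaptor complex of late endosomes, has no gene under its current symbols in the tables. Matched by RefSeq accession, its 4 genes are listed as Gm962 (Ap5b1), Mudeng (Ap5m1), 2310035K24Rik (Ap5s1) and C330006K01Rik (Ap5z1), with log2 fold changes of -0.32, 0.04, 0.34 and 0.58. Only the last of these passed the threshold (edgeR adjusted p = 0.0466), and none is counted among the 48.

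**Figure D2:**
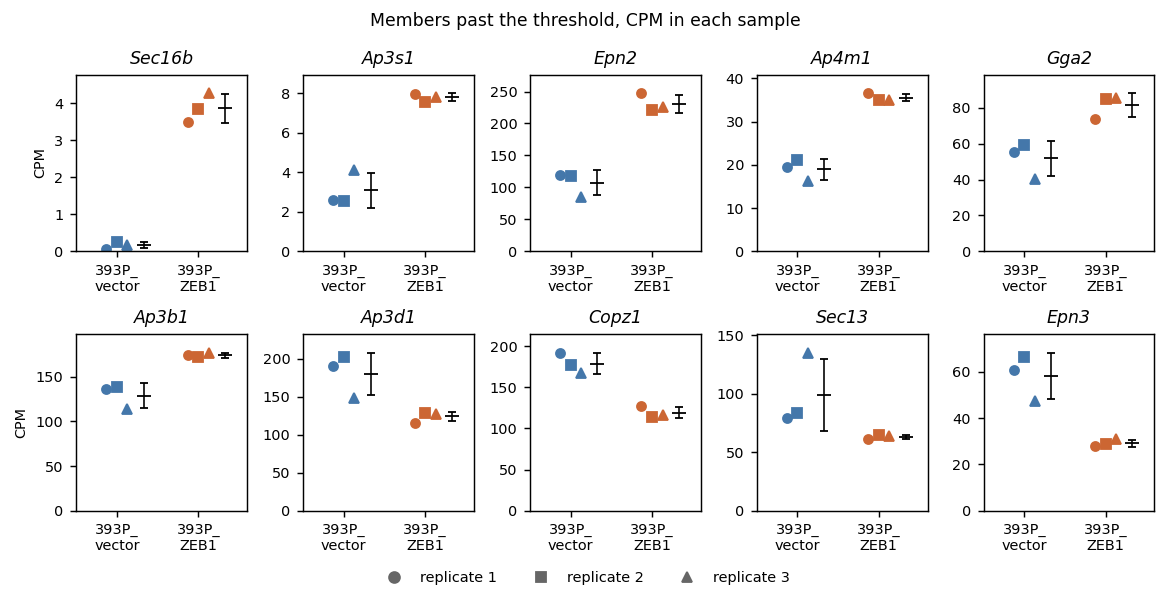
CPM of the 10 coat genes past the threshold in each of the 6 samples, 1 panel per gene with its own linear axis from 0. Marker shapes give the replicate number and black bars the mean and SD of each group, and in every panel the groups are separate, with the widest spread in the 393P_vector samples of Sec13.

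Of the 9 coatomer genes, 1 passed the threshold by edgeR, for the ζ subunit, compared with 37.6% of all tested genes. DESeq2 called 2 and limma with sample weights 6 of the 9, compared with 41.6% and 58.1% of all tested genes. Copz1, the common ζ gene (chromosome 15, 103272918 to 103299864), had 192, 177 and 167 CPM in 393P_vector and 127, 114 and 116 CPM in 393P_ZEB1 samples. It fell by 0.59 on the log2 scale (SE 0.10, edgeR adjusted p = 0.00311), 0.67-fold with a 95% interval of 0.56 to 0.78. Copz2, the scarcer ζ gene (chromosome 11, 96849876 to 96861202), had 1.06, 2.18 and 2.36 CPM in 393P_vector and 3.18, 3.31 and 3.72 CPM in 393P_ZEB1 samples. Its groups did not overlap either, and its log2 fold change was 0.86 (SE 0.29, edgeR adjusted p = 0.0531). Without 393P_vector replicate 3, Copz2 passed the threshold (log2 fold change 1.07, adjusted p = 0.00666). Of the other coatomer genes, Copa (α) was at 0.28 (95% interval 0.03 to 0.54), Copb1 (β) at 0.08, Copb2 (β′) at 0.02, Arcn1 (δ) at -0.08 and Cope (ε) at 0.24. The γ genes Copg, now named Copg1, and Copg2 were at -0.35 (95% interval -0.73 to 0.02) and 0.14 (95% interval -0.10 to 0.39). None of these 7 passed by edgeR over all 6 samples. Without 393P_vector replicate 3, Copa, Copb1 and Copg passed, at 0.22, 0.28 and -0.52 (edgeR adjusted p = 0.0415, 0.019 and 0.000267). In that fit 53% of all tested genes passed. Copa, Copb1 and Copg also passed by limma with sample weights, as did Cope. The log2 fold changes of Copb1, Copb2 and Arcn1 changed sign under some other settings, and that of Copg was 0.00 relative to the chromosome median.

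The outer COPII coat and its scaffold held the largest change of any coat gene. Of the 5 genes in this list, 1 was higher and 1 lower by edgeR, compared with 18.3% and 19.3% of all tested genes. Sec16b, a shorter relative of the ER exit site scaffold SEC16A (chromosome 1, 157506796 to 157568424), had 0.0707, 0.255 and 0.181 CPM in 393P_vector and 3.5, 3.85 and 4.27 CPM in 393P_ZEB1 samples. The counts behind these values were 4, 15 and 15 in 393P_vector and 187, 214 and 261 in 393P_ZEB1. With 4 counts in 393P_vector replicate 1, Sec16b passed the low-count filter only through the 393P_ZEB1 samples, where it is high. Its fold change and p-value therefore only describe these samples. The log2 fold change was 4.49 (SE 0.36, edgeR adjusted p = 5.07e-05), a 22.50-fold rise whose 95% interval of 12.69 to 39.89 is wide because of the low 393P_vector counts. The nearest tested genes, 2810025M15Rik at 86560 bases upstream and Pappa2 at 1143307 bases downstream, had log2 fold changes of -0.70 (edgeR adjusted p = 0.268) and 1.18 (0.0126). Sec16a, the main scaffold, had 177, 161 and 107 CPM in 393P_vector and between 137 and 149 CPM in 393P_ZEB1 samples, which overlapped. Even in 393P_ZEB1 cells Sec16b reached only 0.838 ± 0.0845 CPM per kb (SD, n = 3), compared with 16.4 ± 0.679 CPM per kb (SD, n = 3) for Sec16a.

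Sec13, a propeller protein of the outer cage that is also part of the nuclear pore (chromosome 6, 113728052 to 113740681), had 79.3, 83.4 and 135 CPM in 393P_vector and 61.2, 64.4 and 64 CPM in 393P_ZEB1 samples. The groups did not overlap, and Sec13 fell by 0.65 on the log2 scale (SE 0.20, edgeR adjusted p = 0.0383). The size rests largely on 393P_vector replicate 3, without which the log2 fold change was -0.36 (adjusted p = 0.00253), and without any 1 of the 393P_ZEB1 samples the adjusted p lay between 0.108 and 0.128. Its partner Sec31a had a log2 fold change of 0.08 (95% interval -0.13 to 0.30), and Sec31b was barely detected, at 0.115 to 0.476 CPM.

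The promoters of Sec16b are shown because this gene changed most. RefSeq (GRCm38.p6) gives Sec16b a pair of start sites, and windows of 250 bases before to 50 after each start were searched on both strands for CAGGTG, the E-box that ZEB1 is known to bind, and for TGACGTG, the core of the element bound by XBP1 and related factors of the unfolded protein response, neither of which contains the other. In the windows printed here the motif is in capitals, and they are the only Sec16b matches.

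Sec16b upstream start, TGACGTG 44 bases before it, chr1:157506741-157506769, plus strand: ttctgtgtggcTGACGTGgcacggcagtt
Sec16b downstream start, CAGGTG 61 bases before it, chr1:157526098-157526125, plus strand: gatttgaaggcCAGGTGagtctcggtag
Sec16b downstream start, reverse complement of CAGGTG 38 bases before it, chr1:157526121-157526148, plus strand: ggtagatgtggCACCTGgactttgtcag

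CAGGTG was in 10 of the 44 coat genes with a promoter in the table (22.7%), compared with 21.1% of 10782 tested genes and 20.2% of all 32851 promoters. Besides Sec16b, the coat genes with CAGGTG were Copa, Sec16a, Sec24d, Sec31a, Ap2a1, Ap3s2, Ap3b2, Sar1b and Copz2, and of these only Sec16b passed the threshold. TGACGTG was in 5 of the 44 (11.4%), compared with 3.26% of tested genes and 2.01% of all promoters. A match is a string of letters and not a measured binding site, and these shares were not tested. The 5 were Sec16b and 4 coatomer or inner COPII genes, shown because they share the string close to the start site.

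Sec24d, 26 bases before its start, chr3:123267459-123267487, plus strand: gcccgggcgccTGACGTGgcactagcaac
Copb1, 27 bases before its start, chr7:114254690-114254718, minus strand: ccgcccccttcCACGTCAgccaaggactt
Copb2, 6 bases before its start, chr9:98563714-98563742, plus strand: cccggaagttcCACGTCAgtgggttggcc
Sec23a, 6 bases after its start, chr12:59011994-59012022, minus strand: ctcctccccttTGACGTGgcagaggcggc

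None of these 4 passed the threshold, with log2 fold changes of 0.36 for Sec24d, 0.08 for Copb1, 0.02 for Copb2 and 0.22 for Sec23a. In the inner COPII coat as a whole, 0 of 8 genes passed by edgeR, although Sec24c and Sec24d, 2 genes, had an unadjusted p under 0.05. DESeq2 called 0 of the 8 and limma with sample weights 4. The shares of all tested genes called were 37.6% by edgeR, 41.6% by DESeq2 and 58.1% by limma with sample weights. SEC24 paralogs choose the cargo. Sec24d had 66.2, 65.7 and 88.1 CPM in 393P_vector and 89.3, 103 and 90.8 CPM in 393P_ZEB1 samples, a log2 fold change of 0.36 (95% interval 0.03 to 0.69). Sec24c had 144, 145 and 122 CPM in 393P_vector and 120, 113 and 109 CPM in 393P_ZEB1 samples, a log2 fold change of -0.27 (95% interval -0.52 to -0.02). In both genes the groups did not overlap, with 393P_vector replicate 3 nearest to the 393P_ZEB1 samples. Sec24a and Sec24b were at -0.27 (95% interval -0.70 to 0.15) and 0.54 (95% interval -0.09 to 1.16). Sec23b, Sar1a and Sar1b had log2 fold changes of -0.16, -0.03 and -0.12.

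Summed over the genes of each coat in CPM per kb, AP-4 was higher and the outer COPII coat lower in every 393P_ZEB1 sample, and the other coats had ratios between 0.98 and 1.07. AP-4 was at 31, 32 and 29.9 in 393P_vector and 41.7, 41.2 and 40.7 in 393P_ZEB1 samples, a ratio of 1.33, most of which is Ap4m1 at 11.2 and 20.9 CPM per kb on average. The outer COPII coat was at 138, 137 and 168 in 393P_vector and 124, 122 and 122 in 393P_ZEB1 samples, a ratio of 0.83, with Sec13 at 76.7 and 48.9 CPM per kb on average. The monomeric adaptors did not overlap either, at a ratio of 1.06, but the groups nearly touched. They were at 231, 237 and 205 in 393P_vector, with replicate 3 the lowest, and at 237, 237 and 238 in 393P_ZEB1 samples. COPI, clathrin, AP-2, AP-3 and the inner COPII coat overlapped between groups, with ratios of 0.98, 1.07, 1.00, 1.02 and 0.98. In 393P_vector cells the sums ranged from 31 CPM per kb for AP-4 to 558 CPM per kb for COPI.

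**Figure D3:**
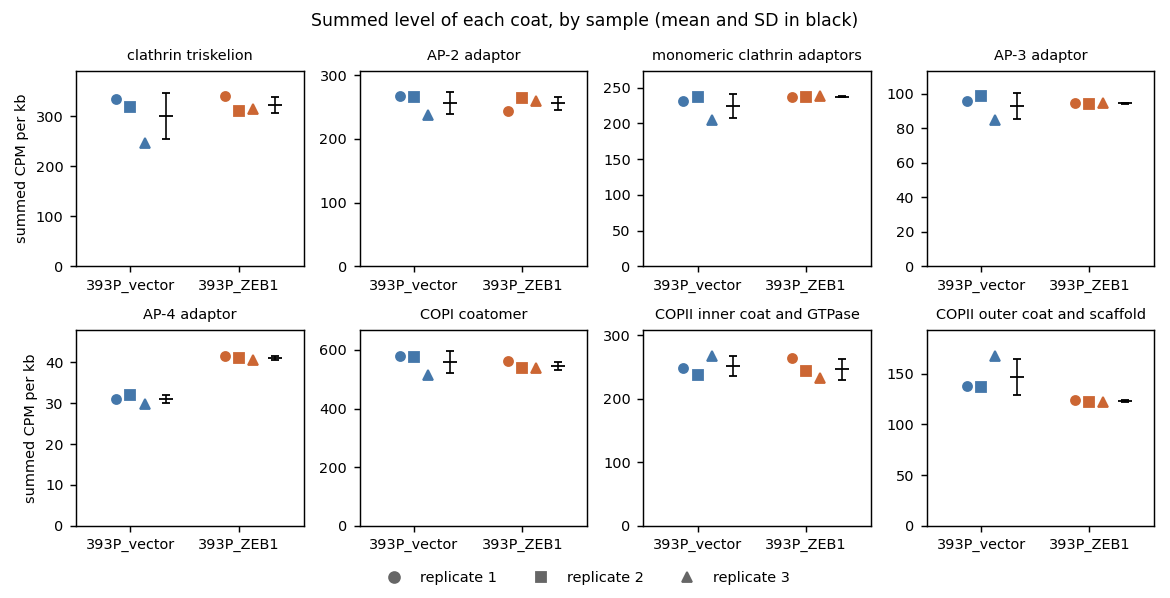
Summed CPM per kb of exon of each coat list in the 6 samples, 1 panel per list with a linear axis from 0. Marker shapes give the replicate number and black bars the mean and SD, and the AP-4 panel shows the 393P_ZEB1 samples at 40.7 to 41.7 above the 393P_vector samples at 29.9 to 32.

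Many coat subunits come from paralog pairs, and 13 such pairs were compared by the share of the first gene in the CPM per kb of the pair. In 5 pairs the shares of the groups did not overlap (exact permutation p = 0.1, the smallest 3 samples against 3 allow, 0.26 after Benjamini-Hochberg adjustment over the 13 pairs). By the CPM of single genes, the groups did not overlap in 52.8% of all tested genes. Shares of other gene pairs were not computed. The share of Ap3s1 was 13.9%, 13.7% and 26.6% in 393P_vector and 31.5%, 34.1% and 33.9% in 393P_ZEB1 samples. With raw counts in place of counts per kb, its difference between the group means was 5.78 in place of 15.10 percentage points, in the same direction. The share of Ap2a1 was 32.7%, 31.6% and 23.4% in 393P_vector and 36.7%, 37.3% and 35.6% in 393P_ZEB1 samples. In COPII, the share of Sec24c with Sec24d went from 61.5% ± 6.32 (SD, n = 3) to 50.8% ± 2.4 (SD, n = 3), and that of Sec16a with Sec16b from 99.8% ± 0.135 (SD, n = 3) to 95.1% ± 0.593 (SD, n = 3). In COPI, the share of Copz1 with Copz2 went from 98.1% ± 0.79 (SD, n = 3) to 95.1% ± 0.571 (SD, n = 3). So Sec16a and Copz1 stayed by far the larger part of their pairs. In the other 8 pairs the shares overlapped, among them Clta with Cltb, Sec23a with Sec23b and Sar1a with Sar1b.

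**Figure D4:**
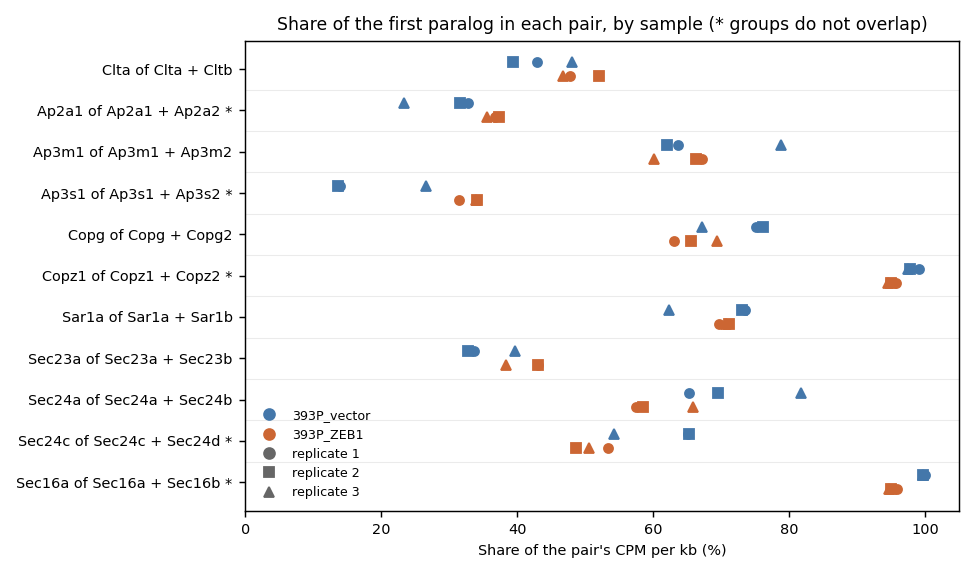
Share of the first paralog in each of 11 pairs, in percent of the pair's CPM per kb, for each sample. Blue marks 393P_vector and orange 393P_ZEB1, marker shapes give the replicate number, and an asterisk marks the 5 pairs whose groups do not overlap, among them Ap3s1, with means of 18% and 33.1%.

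MicroRNAs bear on the coat genes both as candidate regulators and as products of the same loci. ZEB1 and the miR-200 family are known to repress each other, and 393P_vector samples held 0.442 to 0.65 CPM on the Mir200b hairpin and 1.19 to 1.5 CPM on Mir200c, whereas 393P_ZEB1 samples held 0 counts on Mir200b and 1, 0 and 0 counts on Mir200c. Total RNA libraries count hairpin regions, and mature microRNAs were not measured. The mature sequences below, from RefSeq (GRCm38.p6), are shown with the seed, bases 2 to 8, in capitals. miR-200b, miR-200c and miR-429 share the first seed, miR-200a and miR-141 the second, and miR-148a, miR-148b and miR-152 the third.

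mmu-miR-200b-3p: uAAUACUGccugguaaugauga
mmu-miR-200a-3p: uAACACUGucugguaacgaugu
mmu-miR-148a-3p: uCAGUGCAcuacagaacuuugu

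A match to bases 2 to 8 in any annotated 3′ UTR (GENCODE M21, GRCm38) was found for the miR-200b seed in 7 of the 48 coat genes (14.6%), compared with 16.6% of 12934 tested genes with a 3′ UTR. For the miR-200a seed it was 12 of 48 (25%), compared with 22.1%, for the miR-148a seed 8 of 48 (16.7%), compared with 16.4%, and for miR-206, whose seed was searched as well, 5 of 48 (10.4%), compared with 12.1%. The longest 3′ UTR had a median length of 1170 bases in the coat genes and 1207 bases in those tested genes. A miR-200a seed match was in 4 of the 6 coat genes that rose (Ap4m1, Gga2, Epn2 and Ap3s1), in 0 of the 4 that fell and in 8 of the 37 that did not pass. For the miR-200b seed these counts were 1, 0 and 6, for the miR-148a seed 2, 1 and 5, and for the miR-206 seed 0, 1 and 4, all of them too small to read further. The miR-200a matches in Epn2, Gga2 and Ap4m1 are shown as those of genes that rose, with the match in capitals and the coordinates those of the match. Ap3s1 also rose and has 1 match each to the miR-200a and miR-200b seeds, whose sequence is not shown here. The Ap4m1 matches lie in a longer transcript, beyond the interval counted for Ap4m1.

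Epn2, chr11:61519151-61519157, minus strand: ggaggtgttacCAGTGTTgctcaagattc
Gga2, chr7:121988668-121988674, minus strand: gacatgatgagCAGTGTTctgacgagctg
Ap4m1, chr5:138179946-138179952, plus strand: gtactggggcaCAGTGTTtctgtagagaa
Ap4m1, chr5:138180012-138180018, plus strand: aggagcccatcCAGTGTTactgttagaag

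Sec23a is shown because it held the most miR-200b seed matches of any coat gene, 3. Its log2 fold change was 0.22 (95% interval -0.07 to 0.51, edgeR adjusted p = 0.21), so it did not pass the threshold.

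Sec23a, chr12:58959130-58959136, minus strand: tcttactgagaCAGTATTaatataatgtt
Sec23a, chr12:58959218-58959224, minus strand: attgtgttcttCAGTATTttaacactatt
Sec23a, chr12:58959785-58959791, minus strand: tttgcctgataCAGTATTataattggttt

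The ζ genes of coatomer each host a microRNA of the third seed on their own strand. Mir148b lies inside Copz1, at 103285125 to 103285221 of chromosome 15, and Mir152 inside Copz2, at 96850393 to 96850465 of chromosome 11. The hairpins had 4, 1 and 0 counts (Mir148b) and 0, 0 and 0 counts (Mir152) in 393P_vector samples, and 0, 1 and 0 and 1, 0 and 2 counts in 393P_ZEB1 samples, too few to compare. Copz1 itself has a match to this seed in its 3′ UTR, as do Epn2, at 2 places, and Gga2.

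Copz1, chr15:103299754-103299760, plus strand: attctggcccaTGCACTGgctgaagtggg
Epn2, chr11:61517432-61517438, minus strand: ctgttacccgcTGCACTGatcatgaagcc
Epn2, chr11:61518077-61518083, minus strand: tttaacatacgTGCACTGatactatcctt
Gga2, chr7:121987757-121987763, minus strand: acagttgccaaTGCACTGtcagtcacagg

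Among the partners of clathrin coats, Ap1m2 and Fcho1 fell and Reps2 rose by over 2 on the log2 scale. Of 31 tested accessory proteins of clathrin-mediated endocytosis, 8 rose (25.8%, compared with 18.3% of all tested genes), 7 fell (22.6%, compared with 19.3%) and 16 did not pass, with a median log2 fold change of 0.01, compared with -0.02 over all tested genes. The shares of this list and of those that follow were not tested. Reps2, a partner of epsins, rose by 2.52 on the log2 scale, from 0.34 to 2.01 CPM on average. Fcho1, an early organiser of pits, fell by 2.07, from 9.2 to 2.19 CPM, and Dnm1, the dynamin best known from neurons, fell by 1.40, from 5.47 to 2.07 CPM. AP-1, the clathrin adaptor of the trans-Golgi network and endosomes, had 1 of 8 subunits higher and 2 lower (37.5% together, compared with 37.6% of all tested genes). Its µ1B subunit, Ap1m2, which is specific to epithelia, went from 18.5, 19.4 and 19.9 CPM to 0.766, 0.378 and 0.409 CPM and fell by 5.22 on the log2 scale (edgeR adjusted p = 6.23e-06). Ap1m1, the general µ1A subunit, rose by 0.48, and Ap1s3 fell by 0.88. Ap1s2, a subunit that the study depleted, did not pass (log2 fold change 0.67, edgeR adjusted p = 0.0677). It had 5.3, 5.34 and 9.5 CPM in 393P_vector and 10.4, 11.6 and 9.94 CPM in 393P_ZEB1 samples, which did not overlap.

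Of 8 cargo receptors of clathrin coats, 2 were higher (25%, compared with 18.3% of all tested genes) and 4 lower (50%, compared with 19.3%), with a median log2 fold change of -0.37. Igf2r, the large mannose 6-phosphate receptor that GGA proteins bind, had 349, 323 and 249 CPM in 393P_vector and 107, 102 and 114 CPM in 393P_ZEB1 samples. It fell by 1.51 on the log2 scale (edgeR adjusted p = 0.000141). Met, whose receptor the study followed during uptake in a human LUAD line and not in 393P cells, fell by 0.67, and Egfr rose by 0.61. Tfrc, the transferrin receptor, had a log2 fold change of -0.13 (SE 0.15) and did not pass.

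In the 3 remaining lists 11.8%, 16.7% and 24% of the tested genes passed, compared with 37.6% of all tested genes. Of 17 tested partners of AP-3, AP-4 and AP-5, Vps41, which acts with AP-3 in lysosomal sorting, rose by 0.74 and Rusc1 fell by 0.57, and 15 did not pass. Of 12 COPI regulators, the KDEL receptors Kdelr2 and Kdelr3, which retrieve ER proteins, were the only genes past the threshold, Kdelr2 higher by 0.51 and Kdelr3 lower by 0.45 on the log2 scale. Of 25 tested COPII regulators and cargo receptors, 5 rose, 1 fell and 19 did not pass (median 0.15). The 3 largest rises among genes of at least 1 CPM were those of Creb3l2, a membrane-bound transcription factor known to act on COPII genes, at 0.80, Tmed2, a p24 cargo receptor, at 0.68, and Lman1, the ER lectin ERGIC-53, at 0.65. Creb3l2 had 63.4, 58.4 and 45.7 CPM in 393P_vector and 111, 85.3 and 95 CPM in 393P_ZEB1 samples, which did not overlap. The gene that fell, Creb3l1, a relative of Creb3l2, lies under the limit of 1 CPM for naming and was added after its values were seen. It had 0.883, 0.935 and 0.421 CPM in 393P_vector and 0.168, 0.162 and 0.131 CPM in 393P_ZEB1 samples. Creb3l1 fell by 2.25 on the log2 scale (edgeR adjusted p = 0.00355). It passed the low-count filter only through the 393P_vector samples, where it is high, so these values only describe these samples.

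Some coat genes that changed lie on chromosomes whose tested genes were shifted in the same direction, and the link was not tested. Between the groups the tested genes of whole chromosomes were shifted, with medians from -0.43 on chromosome 17 to 0.64 on chromosome 18 on the log2 scale, and 6 tested genes of chromosome Y had a median of -6.89. Differences between the transfected lines other than ZEB1 cannot be told apart from the effect of ZEB1. Among the coat genes that fell, Sec13 (chromosome 6, median -0.36), Copz1 (chromosome 15, -0.33) and Ap3d1 (chromosome 10, -0.30) lie on chromosomes shifted down. Many other chromosomes also had negative medians, and the share of all tested genes on such chromosomes was not counted. The other coat genes of these 3 chromosomes, Copg2, Copg, Gga1 and Sar1a, did not pass, at 0.14, -0.35, -0.37 and -0.03. Ap3s1 lies on chromosome 18, and Epn3 fell on chromosome 11, which was shifted up (median 0.27). The refit that follows subtracts the chromosome median, so by construction it moves every gene of a shifted chromosome. Refitted relative to the chromosome median, Sec13, Copz1, Ap3d1 and Ap3b1 were at -0.29, -0.25, -0.25 and 0.30 and no longer passed (edgeR adjusted p = 0.315, 0.101, 0.204 and 0.073). Sec16b, Ap3s1, Epn2, Ap4m1, Gga2 and Epn3 still passed, at 4.43, 0.69, 0.84, 0.83, 0.67 and -1.27. Copg2 passed only in that fit, at 0.50 (adjusted p = 0.00965). Mest, which lies on the same chromosome outside the interval counted for Copg2, matches 23% of the longest Copg2 transcript at up to 100% identity. Whether the matched part was counted for Copg2 was not tested. The counts were then 6 higher (12.8%, compared with 16.1% of all tested genes) and 1 lower (2.13%, compared with 14.3%). Epn2 and Epn3 share chromosome 11, and their opposite changes stood in both fits.

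**Figure D5:**
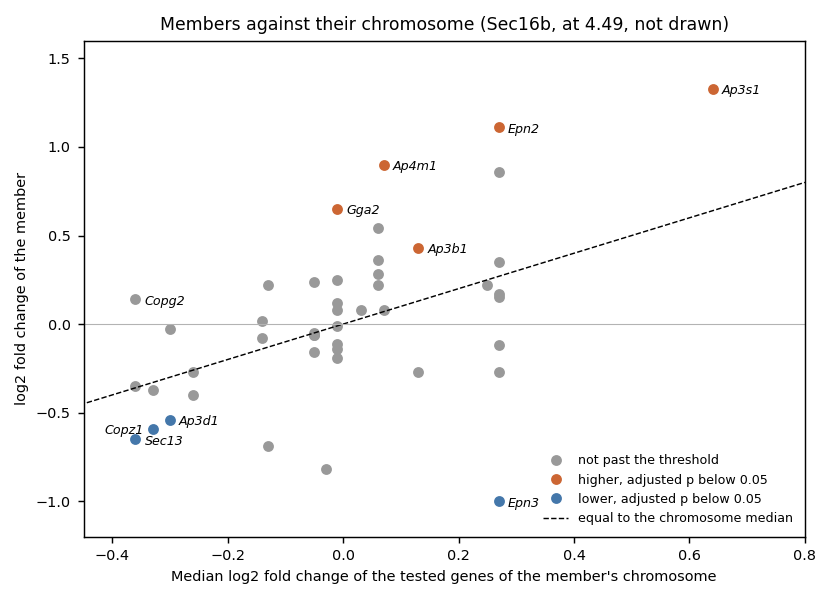
Log2 fold change of each tested coat gene (vertical axis) against the median log2 fold change of the tested genes of its chromosome (horizontal axis), with a dashed line where they are equal. Sec13, Copz1 and Ap3d1 lie 0.25 to 0.29 below the line, Epn3 lies 1.27 below it, and Sec16b, 4.43 above it, is not drawn.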

How the data were processed

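Total RNA of 6 samples, 3 of 393P_vector and 3 of 393P_ZEB1, was sequenced on SOLiD. The tables the authors deposited give raw read counts per RefSeq feature. They also hold the RPKM of the authors, the count scaled by exon length and total reads, which was not used further. The coordinates match GRCm38. The aligner, counting program and treatment of strand are not given in the sources used here.

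Low genes were removed with filterByExpr (minimum count 10) and the rest normalized by TMM and compared by the quasi-likelihood test of edgeR 4.0.16 in R 4.3.3, robust and with no replicate block, with Benjamini-Hochberg adjustment over 13892 genes. The biological coefficient of variation was 0.184. Alternatives used DESeq2 1.42.0, limma 3.58.1, other filters, each sample left out, the replicate number as a block, and an offset by the chromosome median. CPM per kb used the exon length in the tables. Procedures were tested on simulated data.

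Members and gene lists were chosen with earlier results of these data known. Every member is named, with values per sample for those past the threshold and those of pairs whose shares do not overlap. Up to 3 genes per partner list are named, the largest changes past the threshold at 1 CPM or more. Tfrc and Ap1s2 are named in addition because the study followed them. 3′ UTRs were built from GENCODE M21 and found for all 48 members, promoters and microRNAs came from RefSeq tables, with 44 members matched to a promoter, and copies of at least 95% identity over 300 bases were sought with BLAST among all GENCODE M21 transcripts. Not all matches are described above. Among the others, Gm43064 covers 83.7% of the longest Ap4b1 transcript, Gm8752 41% of Arcn1 and Vcl 31.1% of Ap3m1.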

Additional observations from a re-analysis of the deposited data

How the results depend on the processing

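Of the 10 coat genes past the threshold, none changed direction under the alternatives run. Higher and lower coat genes numbered 14 and 12 under limma with sample weights, and leaving out each sample in turn gave 4 to 12 higher and 2 to 12 lower, the extremes of 12 coming without 393P_vector replicate 3. Lower genes numbered 2 at an adjusted p below 0.01, 1 in a test against a 1.5-fold change and 1 relative to the chromosome median. In either direction, 21.3% of coat genes passed by edgeR (37.6% of all tested genes), 55.3% by limma with sample weights (58.1%), 51.1% without 393P_vector replicate 3 (53%), 12.8% at an adjusted p below 0.01 (22.5%), 10.6% against a 1.5-fold change (15.8%) and 14.9% relative to the chromosome median (30.4%), and the cause was not tested. DESeq2 called 8 and 5, or 27.7% (41.6%). With at least 10 counts in every sample, Sec16b was not tested. The samples share only a replicate number. Deviations correlated at 0.279, -0.205 and -0.038 between samples of equal number and at -0.182 to 0.222 otherwise, and with the replicate block 8 coat genes were higher, Copz2 and Sec24b being added, and 4 lower, or 25.5% (31.9%).

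Some genes that did not pass changed sign. Relative to the chromosome median, Ap2b1 was at -0.09, Ap2m1 at -0.03, Gga3 at -0.11, Arcn1 at 0.05, Sar1a at 0.27, and Ap4e1, Copg and Picalm at 0.00. Under limma with sample weights, Ap3s2 was at -0.06, Clta at -0.03, Copb2 at -0.14, Gga3 at -0.07, Picalm at 0.04 and Sar1b at 0.10. With each sample left out, the ranges were -0.60 to 0.03 for Ap3m1, -0.04 to 0.16 for Clta, -0.25 to 0.10 for Sec16a, -0.11 to 0.12 for Picalm, -0.09 to 0.02 for Sar1a, -0.25 to 0.18 for Sar1b, -0.03 to 0.21 for Ap3s2, -0.02 to 0.28 for Copb1, -0.07 to 0.29 for Gga3 and -0.11 to 0.10 for Copb2. With raw counts in place of counts per kb, the change in share was 5.78 points for Ap3s1, -1.74 for Copz1 and -2.53 for Sec16a, in the same direction. Depth limits Sec16b, Sec31b and Ap3b2 most.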
